A study of Mus musculus with 6 samples.

Results

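Nuclear genes for mitochondrial protein import and for the assembly of cytochrome c oxidase were compared between pancreatic islets of Langerhans from wild-type mice (WT) and from lmna LCS mice, in which only lamin C is made from Lmna. The genes were those of the count table whose symbol begins with Timm, Tomm or Chchd and a digit, or with Cox1 and a digit, which gave 41 of 24407 genes. All mice were C57BL/6, 70 weeks old and fed regular chow without restriction, and no further allele or agent was labelled for either group. Each group had 3 libraries, and each library came from the pooled islets of 3 mice, so differences between single animals cannot be seen. Of the 41 genes, 39 had enough counts to be tested. The remaining 2 were Tomm20l, listed at 0 counts in every library, and Timm8a2, a near copy of Timm8a1 with 0 to 3 counts per library.

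Most mitochondrial proteins are made in the cytosol and are drawn into the organelle by translocases. The TOM complex forms the entry pore of the outer membrane, small TIM chaperones carry hydrophobic cargo across the intermembrane space, and the TIM23 and TIM22 complexes pass proteins through or into the inner membrane. Many proteins with twin cysteine motifs, among them the small TIMs and several of the CHCHD family, are trapped in the intermembrane space by an oxidative relay built on Chchd4. Cytochrome c oxidase (COX), the last enzyme of the respiratory chain, needs copper and heme A, and the proteins of the Cox10 to Cox19 series deliver these or help insert and join its subunits. Beta cells rely on mitochondrial ATP production to couple glucose to insulin release.

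The import and COX assembly genes lay mostly higher in LCS islets. At an adjusted p under 0.05, 8 of the 39 tested genes rose and none fell (20.5%). Over all 14539 genes tested in the same edgeR fit, 2.06% were called higher and 0.144% lower. The 8 genes were Cox17, Cox16, Chchd2, Tomm6, Tomm5, Tomm7, Chchd1 and Timm8b. At an unadjusted p under 0.05, 25 genes were higher and 0 lower, where 13.3% and 10.8% of all genes were, and DESeq2 called 19 higher and 0 lower (48.7% higher, against 6.44% higher and 3.93% lower of all genes). A positive log2 fold change was measured for 36 of the 39 genes (92.3%, against 51.1% of all genes), and the median was 0.66 (range -0.38 to 1.44), against 0.01 over all genes. In 24 genes every LCS library lay above every WT library (61.5%, against 14.6% of all genes), and in none did every LCS library lie below (against 12% of all genes). In bulk islets a change in the share of cells that express a gene and a change in its RNA per cell cannot be told apart.

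The count of 8 depended on single libraries and on the handling of transcript length. It was 2 without LCS replicate 1 or without LCS replicate 3, where 0.581% and 0.547% of all genes were called higher, and 7 without LCS replicate 2 (1.77% of all genes). Without WT replicate 1 it was 23, where 12.5% of all genes were called higher and 7.68% lower. It was 3 without WT replicate 2 (0.748% of all genes), 5 without WT replicate 3 (0.931%) and 2 with an offset for transcript length (0.279%). None of the 39 genes was called lower in any of these fits.

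**Figure D1:**
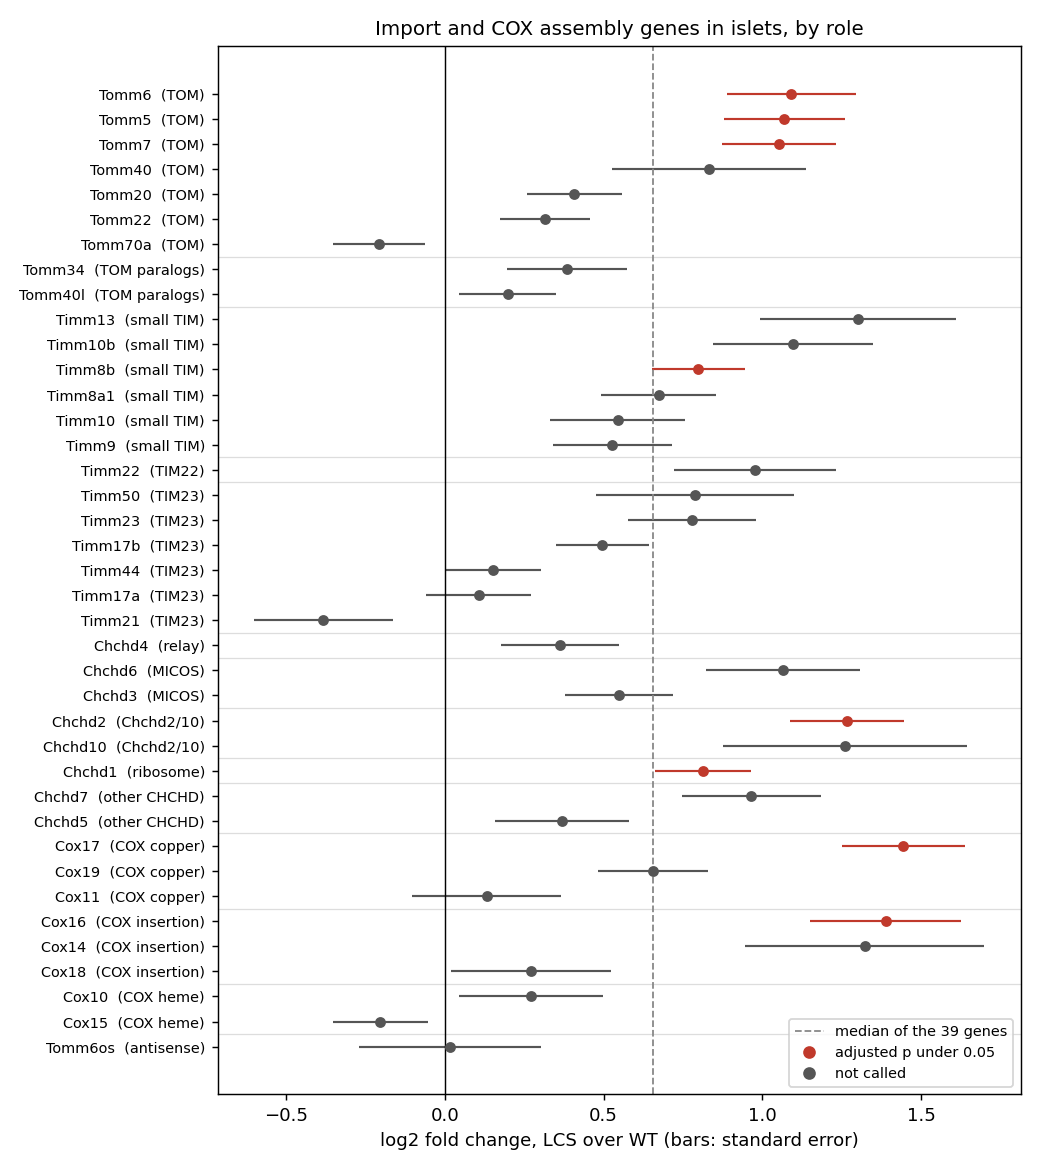
Log2 fold change of LCS over WT (points, with standard errors as bars) for the 39 tested genes, arranged by role, with genes at an adjusted p under 0.05 in red and the median of 0.66 as a dashed line. The points of 36 genes lie to the right of 0, and those of Timm21, Tomm70a and Cox15 lie to the left, the last 2 of which change sign with length and GC offsets.

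The libraries themselves differed. Totals were 41529670 to 68036676 counts in LCS and 26123654 to 34483948 in WT, of which the rows Rn45s, Lars2 and Mir6236, which follow ribosomal RNA, took 52.3% to 54.1% in LCS and 7.64% to 18.5% in WT. Outside these rows the depth was 19057533 to 32462401 counts in LCS and 23511554 to 28094765 in WT. The 41 genes held 0.171% to 0.185% of the counts outside these rows in LCS and 0.104% to 0.137% in WT. Islet markers were abundant in both groups, with Ins2 at a mean of 135400 scaled CPM, the count of a gene relative to its library after correction for composition (TMM), in LCS and 87440 in WT, and Gcg at 17480 and 13910. Of 17 endocrine genes 1 rose and none fell (median log2 fold change 0.25), and the call was lost without LCS replicate 3 and with the length offset. The gene was Ppy, the hormone of PP cells (3.63-fold, edgeR adjusted p = 0.0172). Sst, the hormone of delta cells, was 2.98-fold without overlap (edgeR adjusted p = 0.103), while Slc2a2, Neurod1 and Pcsk1 of beta cells had log2 fold changes of -0.77, -0.38 and -0.41, with overlap and not called. Most markers of exocrine acinar cells moved with the genotype. Of 25 tested acinar genes 21 rose and none fell, where 12 were called without LCS replicate 2, 9 without LCS replicate 3 and 10 with the length offset. Their summed level was 621.3 to 1070 CPM in LCS and 208.1 to 314.8 in WT, and Amy2a5 alone of the 32 listed was at 0 in every library. The acinar genes Bhlha15 (48.1 CPM in LCS and 57.9 in WT) and Amy1 (0.81 and 1.09) had negative log2 fold changes of -0.26 and -0.44. Neither was called, and Amy1 was lower in every LCS library. Of the other cells an islet preparation can hold, macrophage genes had 2 of 11 higher (Lyz1 and Lyz2) and duct, endothelial, B and plasma cell, and fibroblast and stellate cell genes had 0 of 8, 10, 7 and 9 called. Their summed levels were 86.6 to 102 CPM in LCS and 56.4 to 73.3 in WT for macrophage genes and 30.5 to 73.1 and 9.60 to 29.7 for B and plasma cell genes. The macrophage list was not higher throughout (median log2 difference 0.07). C1qa averaged 39.1 CPM in LCS and 22.7 in WT, the largest single part of the difference in the sum, whereas Adgre1, Itgam, Mrc1, Csf1r and Cd68 had negative fold changes, none of them called, and Adgre1 (-0.62) was lower in every LCS library. Both macrophage calls were lost without LCS replicate 1. Of 5 red blood cell genes listed, the 4 globin genes were at 0 in every library, and the remaining gene had too few counts to be tested. Without a filter on low counts that gene had a log2 fold change of -4.45 and was not called. These zeros do not by themselves show that blood cells were absent. The part of acinar cells, macrophages and the endocrine hormone genes in the results below was not tested, nor was that of ribosomal RNA. Leaving those 3 rows out again gave 8 genes (2.08% of all genes were called higher). TMM already corrects for composition, so that fit could change little. The ribosomal share did not overlap between the groups, so its part cannot be told apart from that of genotype.

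Short stretches of promoter are shown because genes of the nuclear-encoded mitochondrial programme are known to carry binding sites for ETS factors such as GABP. RefSeq promoters of GRCm38.p6, from 250 bases before to 50 after the annotated start, were found for 33 of the 41 genes. CCGGAAGT or its reverse complement ACTTCCGG, a core ETS motif, was present in 10 of the 33 (30.3%), against 5.69% of 17492 protein-coding genes searched the same way on both strands. The 17492 genes were not limited to those expressed in islets. Of the ETS matches in the 10 genes, 8 lay before the start and 4 after it. Cox14, Cox15, Timm10 and Timm10b had a match only after the start. The NRF1 core CGCATGCG was in 1 of 33 (2.77% of all genes), the E-box CACGTG in 7 (8.91%), AAGATGGC of YY1 in 2 (3.57%) and GGGCGG of SP1 in 15 (49.2%). The CCAAT box was in 12 (42.3%) and TATAAA of the TATA box in 4 (14.8%), so 7 motifs were searched in all. No ETS match overlapped another of these motifs. The 120 bases before the start of 4 of the genes with an ETS match follow, 5′ to 3′ in the direction of the gene, with that motif in capitals. Cox16 was called higher, Timm23 and Chchd5 were not called, and Tomm70a had a negative fold change.
Cox16 (chr12:81485138-81485257, - strand): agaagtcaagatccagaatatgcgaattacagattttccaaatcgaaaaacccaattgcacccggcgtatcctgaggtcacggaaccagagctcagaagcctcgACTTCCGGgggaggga
Timm23 (chr14:32201892-32202011, - strand): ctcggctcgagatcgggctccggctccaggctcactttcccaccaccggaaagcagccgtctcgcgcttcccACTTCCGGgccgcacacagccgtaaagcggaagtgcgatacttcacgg
Chchd5 (chr2:129129580-129129699, + strand): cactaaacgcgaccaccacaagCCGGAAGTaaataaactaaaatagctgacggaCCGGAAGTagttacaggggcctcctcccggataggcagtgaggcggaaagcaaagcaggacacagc
Tomm70a (chr16:57121594-57121713, + strand): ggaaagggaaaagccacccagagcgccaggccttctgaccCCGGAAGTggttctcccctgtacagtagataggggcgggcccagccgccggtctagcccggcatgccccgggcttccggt

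The match lies at -16 from the start in Cox16, at -48 in Timm23, at -98 and -66 in Chchd5 and at -80 in Tomm70a. Cox16 has another annotated start, next to chr12:81484852-81484971 on the - strand, and that promoter held no ETS match. A gene was counted as holding a motif if any of its annotated promoters did. Of the 8 called genes only Chchd1, Cox16, Timm8b, Tomm5 and Tomm6 could be searched, since Chchd2, Cox17 and Tomm7 had no promoter in the table. The 9 tested genes with it had a median log2 fold change of 0.54 (range -0.21 to 1.39) and 1 call, and the 22 without it a median of 0.66 and 4 calls, a difference that was not tested. A match is only a match of letters, and binding was not measured here. Gabpa, which codes for the ETS protein of GABP, had a log2 fold change of -0.49 (SE 0.18, edgeR adjusted p = 0.15) and did not pass the test. Gabpb1, the other GABP gene among the regulators listed below, was at -0.02 (SE 0.17, edgeR adjusted p = 0.95) with overlap. The median Gabpa transcript has 3594.5 nt, and protein-coding genes over 2000 nt had a median log2 fold change of -0.12. Every LCS library lay below every WT library for Gabpa.

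Within the TOM complex only the 3 small subunits passed the test. Tomm5, Tomm6 and Tomm7 are single-span proteins that steady the pore, and all 3 rose. Tomm6 (gene 66119) measured 74.6, 67.1 and 92.1 CPM in LCS and 44.5, 38.02 and 27.1 CPM in WT, here and below in the order of replicates 1 to 3. The groups did not overlap, and the level was 2.13-fold higher (log2 1.09, SE 0.20, edgeR adjusted p = 0.0261). Tomm5 (gene 68512) measured 29.96, 31.2 and 33.4 CPM in LCS and 16.2, 17.8 and 11 CPM in WT, a rise to 31.5 ± 1.74 CPM from 15.0 ± 3.57 CPM (SD, n = 3) (log2 1.07, SE 0.19, edgeR adjusted p = 0.022). Tomm7 (gene 66169) measured 88.7, 72.7 and 110.0 CPM in LCS and 37.8, 46.8 and 46.3 CPM in WT, a 2.08-fold rise (log2 1.05, SE 0.18, edgeR adjusted p = 0.0198). All WT libraries lay below all LCS libraries for both genes as well. With an offset for transcript length the 3 genes had log2 fold changes of 0.72, 0.69 and 0.77 (Tomm6, Tomm5 and Tomm7) and none was called.

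The pore and the receptors did not pass the test. Tomm40, the beta barrel of the pore, measured 18.3, 13.7 and 25.5 CPM in LCS and 15.9, 8.64 and 7.68 CPM in WT, so that WT replicate 1 lay inside the LCS range (log2 0.83, SE 0.30, edgeR adjusted p = 0.145). Tomm20, the main presequence receptor, measured 65.3, 84.4 and 77.8 CPM in LCS and 62.7, 56.9 and 51.9 CPM in WT. These groups did not overlap, but the difference of 0.41 (SE 0.15) missed the threshold (edgeR adjusted p = 0.147). Tomm22, the central receptor, had a log2 fold change of 0.32 (SE 0.14). Tomm70a, the receptor for carrier proteins, measured 34.8, 43.3 and 36.1 CPM in LCS and 44.6, 41.5 and 45.7 CPM in WT, with a log2 fold change of -0.21 (SE 0.14, edgeR adjusted p = 0.4). The groups overlapped, and the sign changed with the length offset (0.03) and with length and GC offsets (0.30). Counted within each library, which needs no scaling between libraries, there were 155 to 255 Tomm6 counts per 100 Tomm70a counts in LCS and 59.3 to 99.7 in WT. The transcripts differ in length (671.5 and 5964 nt), and the difference between the 2 log2 fold changes fell from 1.30 to 0.69 with the length offset and to 0.34 with length and GC offsets.

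Genes named after TOM proteins but outside the core complex did not pass the test. Tomm34, a cytosolic co-chaperone, measured 24.2, 16.8 and 22.7 CPM in LCS and 19.2, 14.7 and 14.8 CPM in WT (log2 0.39, SE 0.19, edgeR adjusted p = 0.244). Tomm40l, a second pore gene, had a log2 fold change of 0.20 (SE 0.15). Tomm6os, the antisense partner of Tomm6, had 43 to 68 counts per library and a log2 fold change of 0.02 (SE 0.29). Whether the counting used strand is not stated, and without it reads of Tomm6 and Tomm6os cannot be told apart.

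Among the small TIM chaperones, which form ring-shaped hexamers that shield hydrophobic cargo, all 6 tested genes lay higher without overlap between the groups, and 1 rose by the test. Over all genes 14.6% lay higher without overlap and 2.06% were called higher. The median transcripts of the 6 genes were short, from 492 nt (Timm10b) to 1421 nt (Timm8a1). Protein-coding genes under 1000 nt had a median log2 fold change of 0.31. Timm8b (gene 30057) measured 47.2, 52.8 and 56.0 CPM in LCS and 26.2, 31.8 and 31.7 CPM in WT. This was a 1.74-fold rise (log2 0.80, SE 0.15, edgeR adjusted p = 0.0256). It was the least stable of the 8 calls, since it remained in 8 of 18 alternative fits and was lost with the length offset (0.35). Timm13, the partner of the Timm8 proteins in their hexamer, had the larger fold change but wider spread. It measured 45.9, 32.7 and 54.0 CPM in LCS and 27.1, 15.6 and 11 CPM in WT (log2 1.30, SE 0.31, edgeR adjusted p = 0.0599). Timm10b, which docks the chaperones to the TIM22 complex, had a log2 fold change of 1.10 (SE 0.25, edgeR adjusted p = 0.0557), and Timm8a1 0.67 (SE 0.18, edgeR adjusted p = 0.0805).

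Timm9 and Timm10, which together make the most common hexamer, had near-equal fold changes. Their log2 fold changes were 0.53 (SE 0.19) and 0.54 (SE 0.21), and neither passed the test. In each library their ratio stayed near the same value, with 106 to 129 Timm9 counts per 100 Timm10 counts in LCS and 111 to 135 in WT. Timm13 and Timm8b kept no such ratio, with 61.8 to 97.3 Timm13 counts per 100 Timm8b counts in LCS and 34.7 to 103 in WT. The value of 103 belongs to WT replicate 1, and WT replicates 2 and 3 were at 49.0 and 34.7. With length and GC offsets the difference between the log2 fold changes of Timm9 and Timm10 was 0.26, against -0.01 without them, and that between Timm13 and Timm8b 0.21, against 0.50.

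The TIM23 complex, which takes in proteins with a presequence, had no member that passed the test. Its 6 tested genes ran from -0.38 to 0.79, with a median of 0.32. Timm23, the channel subunit, measured 49.8, 53.0 and 54.8 CPM in LCS and 41.2, 26.5 and 24.2 CPM in WT (1.71-fold, log2 0.78, SE 0.20, edgeR adjusted p = 0.0747). The groups did not overlap, and without WT replicate 1 the gene was called (log2 1.05, edgeR adjusted p = 0.00156). Timm50, the presequence receptor of the complex, had a log2 fold change of 0.79 (SE 0.31, edgeR adjusted p = 0.168), and Timm44, which anchors the import motor, 0.15 (SE 0.15). Timm21, which links the complex to TOM, measured 4.30, 5.15 and 5.36 CPM in LCS and 4.97, 7.01 and 7.37 CPM in WT. Its log2 fold change of -0.38 (SE 0.22, edgeR adjusted p = 0.309) was the lowest of the 39 genes.

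Timm17a and Timm17b are alternative subunits of this complex. Timm17a measured 35.0, 34.9 and 40.8 CPM in LCS and 28.1, 35.0 and 39.6 CPM in WT, with overlap (log2 0.11, SE 0.16, edgeR adjusted p = 0.719). Timm17b had a log2 fold change of 0.50 (SE 0.15, edgeR adjusted p = 0.0965) and no overlap. There were 125 to 129 Timm17a counts per 100 Timm17b counts in LCS and 131, 172 and 202 in WT replicates 1 to 3. The ratio was therefore lower in every LCS library, with WT replicate 1 next to them. Timm22, the channel for carrier proteins, measured 25.9, 18.9 and 35.9 CPM in LCS and 15.3, 15.6 and 9.95 CPM in WT (log2 0.98, SE 0.26, edgeR adjusted p = 0.0751).

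**Figure D2:**
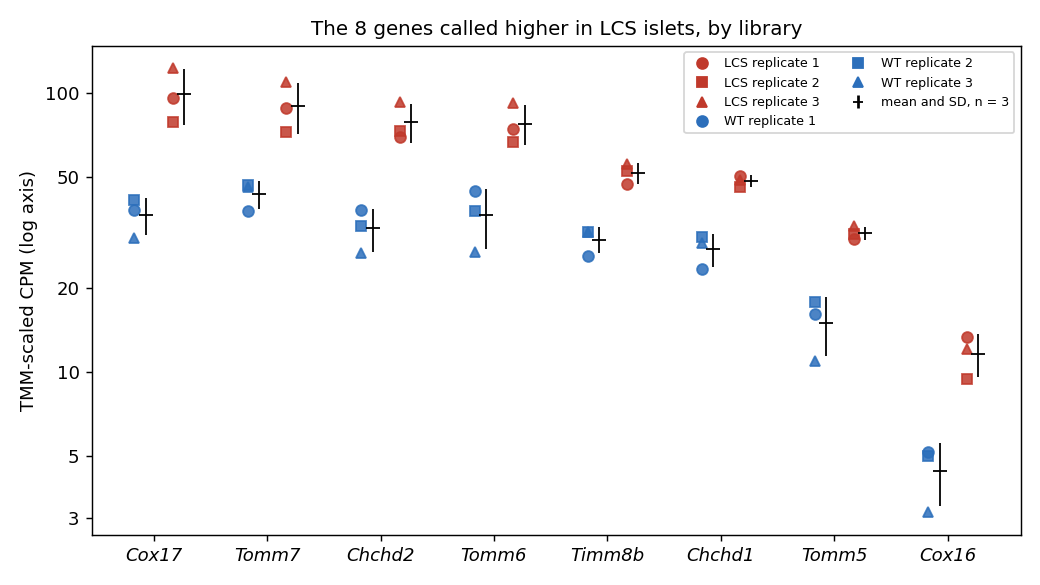
TMM-scaled CPM (log axis) of the 8 genes called higher, with WT libraries in blue, LCS libraries in red, a marker shape for each replicate and the mean with SD of 3 libraries as black bars. No blue marker reaches a red one for any gene, and the gap is widest for Cox17 (99.6 CPM in LCS, 36.6 in WT).

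In the CHCHD family, 2 genes rose. Chchd2 (gene 14004), an intermembrane space protein also found in the nucleus as a regulator of a COX subunit gene, measured 69.9, 73.6 and 93.3 CPM in LCS and 38.2, 33.4 and 26.8 CPM in WT. The groups did not overlap, and the rise was 2.41-fold (log2 1.27, SE 0.18, edgeR adjusted p = 0.0102). The call held in 17 of 18 alternative fits, the exception being a test against a 1.5-fold change. RefSeq lists a pseudogene copy, Chchd2-ps, so its counts may be uncertain. Only copies named by the gene symbol followed by ps were searched, so copies of the other genes under other names would be missed. Its paralog Chchd10 had nearly the same fold change of 1.26 (SE 0.38) and was not called (edgeR adjusted p = 0.103). Chchd10 measured 32.4, 17.6 and 36.9 CPM in LCS and 20, 8.83 and 7.29 CPM in WT, and WT replicate 1 lay above LCS replicate 2.

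Chchd1 (gene 66121), a protein of the small mitochondrial ribosomal subunit, measured 50.7, 46.1 and 48.8 CPM in LCS and 23.4, 30.4 and 29.1 CPM in WT. This was a 1.76-fold rise without overlap (log2 0.81, SE 0.15, edgeR adjusted p = 0.0256). Chchd3 and Chchd6 belong to MICOS, the complex that shapes cristae. Chchd3 measured 40.9, 43.3 and 43.3 CPM in LCS and 35.9, 27.2 and 24.0 CPM in WT (log2 0.55, SE 0.17, edgeR adjusted p = 0.108). Chchd6 had a log2 fold change of 1.07 (SE 0.24, edgeR adjusted p = 0.0549). There were 39.6 to 42.4 Chchd6 counts per 100 Chchd3 counts in LCS and 23.7 to 32.3 in WT, so the balance between both genes differed without overlap. The difference between their log2 fold changes was 0.52, and 0.33 with length and GC offsets.

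Chchd4, the oxidoreductase of the import relay on which twin cysteine proteins of the intermembrane space depend, was not called. It measured 16.9, 19.7 and 17.8 CPM in LCS and 17.7, 12.9 and 11.7 CPM in WT, with WT replicate 1 inside the LCS range (log2 0.36, SE 0.19, edgeR adjusted p = 0.264). Chchd7 measured 17.5, 19.1 and 21.1 CPM in LCS and 13.4, 7.92 and 8.20 CPM in WT (log2 0.97, SE 0.22, edgeR adjusted p = 0.0547), and Chchd5 had a log2 fold change of 0.37 (SE 0.21).

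Cox17 had the highest fold change of the 39 genes. It codes for the copper chaperone that hands copper to the COX assembly line. Cox17 (gene 12856) measured 96.7, 78.8 and 123.3 CPM in LCS and 38.03, 41.3 and 30.4 CPM in WT. The lowest LCS library stood well above the highest WT library, and the rise was 2.72-fold (log2 1.44, SE 0.19, edgeR adjusted p = 0.00741). It was called in all 18 alternative fits, with log2 fold changes of 1.27 to 1.71, and was the only member called against a 1.5-fold change (edgeR adjusted p = 0.0455). The other copper genes did not pass the test. Cox19 was at 0.66 (SE 0.17, edgeR adjusted p = 0.0765) and Cox11, which brings copper to the catalytic core, at 0.13 (SE 0.23, edgeR adjusted p = 0.759).

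Of the genes for insertion and early assembly, Cox16 (gene 66272) rose. It measured 13.4, 9.41 and 12.1 CPM in LCS and 5.16, 5.01 and 3.14 CPM in WT, which is 2.62-fold without overlap (log2 1.39, SE 0.24, edgeR adjusted p = 0.0199). Cox14, which binds newly made COX1, measured 30.1, 39.3 and 39.6 CPM in LCS and 25.1, 11.3 and 7.13 CPM in WT. These groups did not overlap either, but the WT libraries were widely spread and the gene did not pass the test (log2 1.32, SE 0.38, edgeR adjusted p = 0.0904). Cox18, which inserts part of COX2 into the membrane, was at 0.27 (SE 0.25).

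Neither heme A gene passed the test. Cox10 makes heme O and Cox15 turns it into heme A. Cox15 measured 17.9, 21.5 and 19.1 CPM in LCS and 24.5, 22.2 and 20.7 CPM in WT, with a log2 fold change of -0.20 (SE 0.15, edgeR adjusted p = 0.428) that turned to 0.07 with length and GC offsets. Cox10 was at 0.27 (SE 0.23, edgeR adjusted p = 0.485). Set against Cox15 in the same library, Cox14 had 168 to 207 counts per 100 in LCS and 34.5 to 102 in WT, and Cox16 had 43.8 to 74.9 in LCS and 15.2 to 22.5 in WT. The Cox15 transcript is the longest of these 3 (4798 nt, against 723 for Cox14 and 668 for Cox16). The difference in log2 fold change from Cox15 was 1.52 for Cox14 and 1.59 for Cox16, which became 1.01 and 1.03 with the length offset and 0.86 and 1.10 with length and GC offsets.

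**Figure D3:**
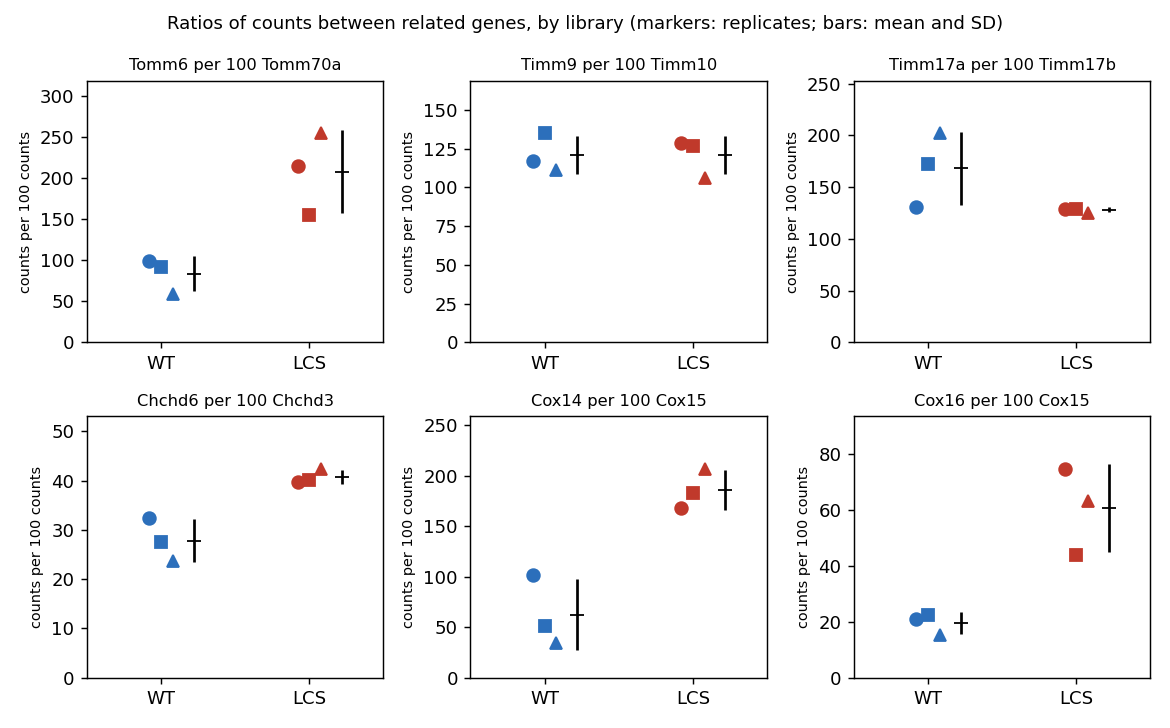
Counts of one gene per 100 counts of a related gene in each library (linear axis from 0), with replicates as marker shapes and the mean with SD of 3 libraries as black bars. Timm9 per 100 Timm10 lies at 106 to 135 in all libraries, whereas Tomm6 per 100 Tomm70a and Cox14 per 100 Cox15 are higher in every LCS library. Both of these pairs set a short transcript against a long one, and with length and GC offsets their log2 differences fall from 1.30 to 0.34 and from 1.52 to 0.86.

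Levels can be set side by side only per transcript length. As mean CPM per kb in WT, the order was Timm8b (57.7), Tomm6 (54.4), Timm17a (53.8), Chchd1 (47.1), Timm23 (39.4), Tomm7 (38.8), Chchd2 (35.8) and Timm13 (33.0). In LCS it was Tomm6 (116), Timm8b (100.4), Chchd2 (86.3), Chchd1 (82.8), Timm13 (81.5), Tomm7 (80.4) and Timm23 (67.6), with Timm17a at 58.0 in place 9. The order therefore differed between the groups, and neighbours in it were not tested against each other. Low values in both groups belonged to Cox10 (2.11 in LCS and 1.75 in WT), Timm21 (2.04 and 2.67) and Cox18 (3.42 and 2.84). The lengths are medians of coding transcripts in GENCODE M21, and for Cox17, with transcripts of 444 and 3690 nt, the values of 48.2 in LCS and 17.7 in WT depend on which one the islets make. The same holds for other genes, among them Timm17a (468 to 7280 nt), Tomm20 (458 to 4902 nt) and Timm10b (367 to 3273 nt). The places of Timm17a in both orders are therefore uncertain.

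The 6 libraries did not fall into 2 even groups. Relative to its mean over the 6 libraries, the median gene of the 39 lay at 0.30, 0.23 and 0.43 (log2) in LCS replicates 1 to 3 and at -0.06, -0.29 and -0.43 in WT replicates 1 to 3. LCS replicate 3 was the highest library for 28 of the 39 genes and WT replicate 3 the lowest for 24. WT replicate 1 took a place between the groups. In 33 genes all LCS libraries lay above WT replicates 2 and 3 (84.6%, against 28.9% of all genes), and 9 of these overlapped only through WT replicate 1. These 9 were Chchd10, Chchd4, Chchd5, Cox10, Cox18, Timm50, Tomm34, Tomm40 and Tomm40l. For another 8 genes, Chchd1, Cox11, Timm10, Timm17a, Timm44, Timm8b, Timm9 and Tomm7, WT replicate 1 was instead the lowest of the 6 libraries.

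GC content moved with this. The median GC content of the transcripts was 54.1% for the 9 genes (46.0% to 60.9%) and 47.4% for the 8 (44.0% to 53.4%). Across 38 of the 39 genes, Spearman's rho between GC content and the log2 ratio of WT replicate 1 to WT replicates 2 and 3 was 0.663, and across 13657 protein-coding genes it was 0.627. Genes are not independent replicates, and all points share the same libraries. The part of GC content in the WT replicate 1 values was not tested, and fits with length and GC offsets are given below. The titles of WT replicates 1 and 2 carry numbers far from those of the other 4 libraries. With WT replicate 3 as the only WT library, assumed to vary like the others, 15 of the 39 genes were called higher and 0 lower (38.5% higher, against 5.77% higher and 2.16% lower of all genes). Of the 8 genes 5 were among these 15, and Chchd1, Timm8b and Tomm7 were not.

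**Figure D4:**
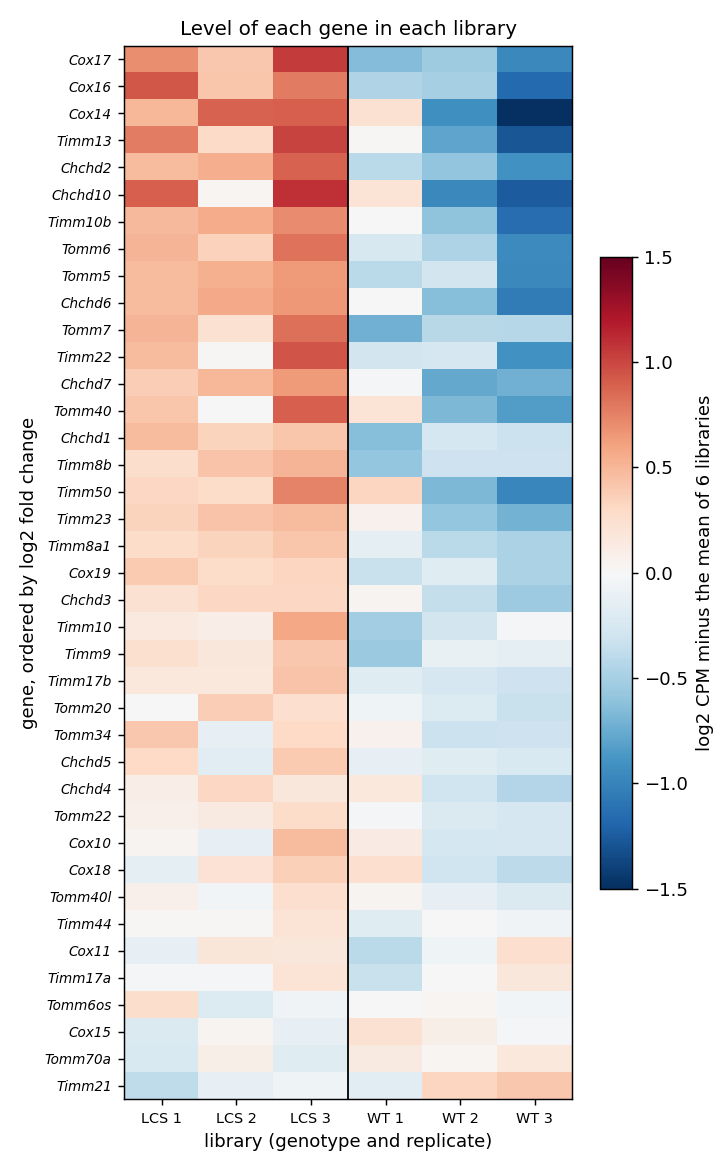
Log2 CPM of each of the 39 tested genes in each library minus its mean over the 6 libraries (red above, blue below), with genes ordered from the highest fold change (Cox17, 1.44) to the lowest (Timm21, -0.38). The LCS columns are mostly red and WT replicate 3 is the deepest blue, while WT replicate 1 is pale or red for genes such as Tomm40 and Timm50.

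Transcript length moved with the fold change as well. The 38 protein-coding genes tested had a median length of 1150.5 nt, against 2239 nt over all protein-coding genes tested. In the class under 1000 nt, 16 of these genes had a median log2 fold change of 0.97 and 6 calls, where all protein-coding genes of that class had a median of 0.31 and 7.72% called higher. From 1000 to 2000 nt 13 genes had a median of 0.66 and 1 call (0.17 and 1.42% over all), and above 2000 nt 9 genes had a median of 0.27 and 1 call (-0.12 and 0.195%). The call above 2000 nt was Cox17, whose median of 2067 nt lies between transcripts of 444 and 3690 nt, so its class is uncertain. Longer transcripts had lower fold changes, with a Spearman's rho of -0.552 over the 38 genes and of -0.425 over 13657 protein-coding genes.

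With an offset for length in the model the median of the 38 genes was 0.45, and 2 were called, Cox17 (log2 1.40, edgeR adjusted p = 0.0137) and Chchd2 (log2 0.96, edgeR adjusted p = 0.0303). Over all genes 0.279% were then called higher. With offsets for length and GC content the median was 0.44 and 9 were called. These were 7 of the 8, without Timm8b, together with Chchd6 and Timm13, and 2.24% of all genes were called higher and 2.5% lower. Because the median length of Cox17 rests on 2 unlike transcripts, a fit with the shortest coding transcript of each gene was added after the data were seen. It called 5 genes (1.01% of all genes were called higher), with Cox17 at 1.35 (edgeR adjusted p = 0.0165), Chchd2 at 1.10, Cox16 at 1.30, Tomm5 at 0.98 and Tomm6 at 0.99.

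**Figure D5:**
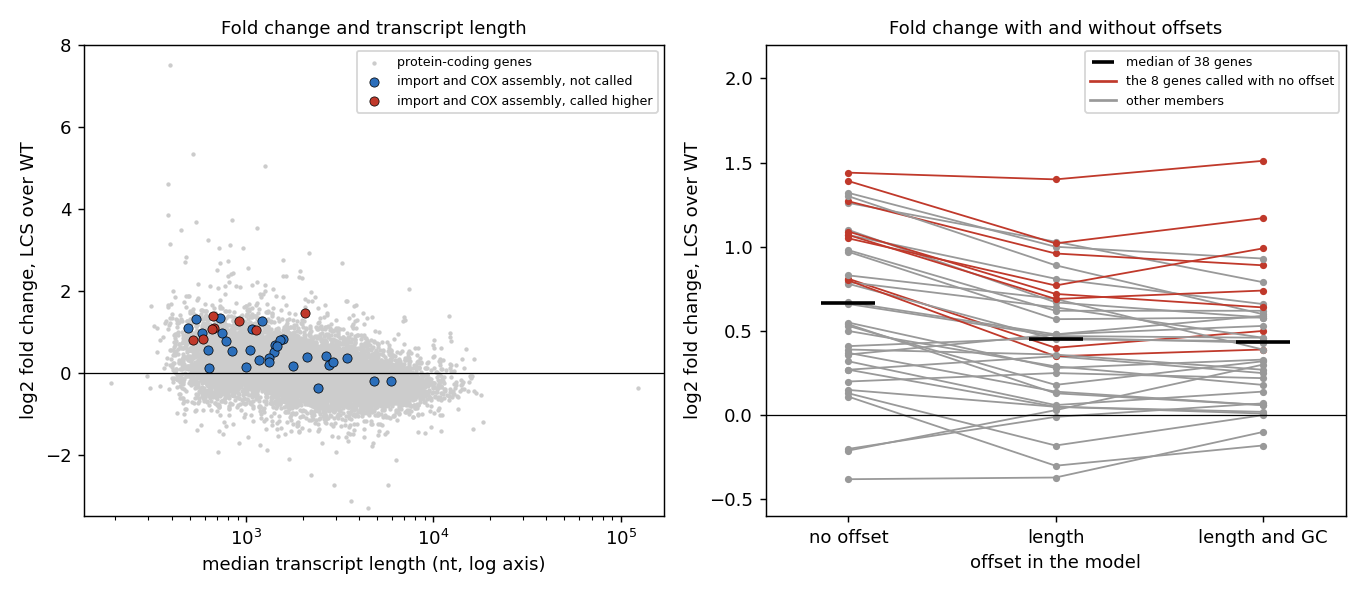
Left, log2 fold change of LCS over WT against the median transcript length (nt, log axis) for all protein-coding genes (grey) and for the import and COX assembly genes (blue, or red where called). Right, the log2 fold change of each of 38 genes with no offset, with a length offset and with length and GC offsets, where the black bars mark medians that fall to 0.45 and 0.44 and the red line of Cox17 stays near its first value.

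Other genes of the same pathways were read from lists of textbook members. Of 14 tested COX subunit genes, 5 rose and 0 fell (median log2 fold change 0.83). These were Cox7c (2.21-fold), Cox4i1 (1.76-fold), Cox7b (1.71-fold), Cox6c (1.82-fold) and Cox7a2 (1.78-fold). Of 20 COX assembly factors outside the Cox1 series, 2 rose and none fell (median 0.62), namely Coa6, a partner of the copper pathway (3.15-fold), and Pet100 (2.25-fold). Of 22 other import genes 3 rose and none fell (median 0.40, range -0.96 to 1.72). Dnajc19 (2.91-fold), Dnajc15 (1.78-fold) and Pam16 (2.23-fold) all code for J proteins or J-like proteins of the import motor at TIM23. At the other end Mtx3, a metaxin of the outer membrane, measured 15.98, 18.8 and 11.5 CPM in LCS and 20.3, 31.5 and 38.3 CPM in WT (log2 -0.96, SE 0.25, edgeR adjusted p = 0.0773), lower in every LCS library. It was not called, but 1 gene of the list was called lower with DESeq2, without a filter on low counts, without WT replicate 1 and with WT replicate 3 as the only WT library. Of 5 further MICOS genes 1 rose, 2410015M20Rik (1.78-fold), with a list median of 0.37. These calls depended on single libraries. For COX subunits, other assembly factors, other import genes and MICOS, the counts of 5, 2, 3 and 1 fell to 0 in each list without LCS replicate 1, without LCS replicate 3 or without WT replicate 2. Leaving out LCS replicate 2 gave 2, 2, 0 and 1 calls. WT replicate 3 left out gave 1, 0, 1 and 1, and WT replicate 1 left out gave 10, 8, 9 and 2. With the length offset no gene of these lists was called, and the medians were 0.45, 0.23, 0.29 and 0.24. With length and GC offsets 3, 2, 5 and 1 genes were called, and the medians were 0.46, 0.23, 0.31 and 0.35.

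In the main fit no gene was called in 3 further mitochondrial lists. None of 16 mitochondrial chaperones and proteases passed the test (median 0.14), and Hspe1 and Clpp had the smallest p, with log2 fold changes of 0.57 (SE 0.14) and 1.05 (SE 0.27). None of 16 regulators of mitochondrial biogenesis passed it either (median 0.11). The smallest p belonged to Gabpa, at -0.49 (SE 0.18), and to Tfam, which packages mitochondrial DNA, at 0.35 (SE 0.15). Among 10 genes used as marks of mitochondrial content none passed (median 0.18), with the ADP/ATP carrier gene Slc25a4 at 0.63 (SE 0.19) and Mdh2 of the citric acid cycle at 0.61 (SE 0.21). At an unadjusted p under 0.05 the chaperone, regulator and content lists had 6, 1 and 3 genes higher and 0, 1 and 0 lower, and DESeq2 called 5, 0 and 1 higher and 0 lower in each. Leaving out WT replicate 1 gave 6, 2 and 3 genes higher and 0 lower, where 12.5% of all genes were called higher. Length and GC offsets gave 2, 0 and 1 higher and 0, 1 and 0 lower (2.24% higher and 2.5% lower of all genes). With the length offset none was called, and the medians were 0.18, 0 and -0.01. Differences between the lists were not tested.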

How the data were processed

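Poly(A) RNA was measured in islets of 3 LCS and 3 WT pools. TRIzol extraction and a stranded TruSeq library kit were used, per the labels' protocols. In the submitters' processing notes the mm9 build, HTSeq 0.9.0, TopHat2 2.1.1 and Bowtie2 2.2.9 appear with no roles. Annotation and strand setting were not given in the sources used here. The authors deposited raw counts for 24407 genes, without scaling. Group names follow the labels, and replicate numbers follow accession order. No batch, sex or pair was labelled.

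The test was edgeR 4.0.16 (R 4.3.3), after filterByExpr had kept 14539 genes. Libraries were scaled by TMM (factors 0.633 to 0.749 in LCS and 1.395 to 1.498 in WT), and a quasi-likelihood model with genotype alone was fitted to all 6. P-values were adjusted over all genes by the Benjamini-Hochberg method at 0.05. Standard errors are the log2 fold change over the root of the F statistic. Alternatives used DESeq2 1.42.0, limma-voom (limma 3.58.1), other filters and libraries, and loess offsets (span 0.5) for transcript length and GC content from GENCODE M21. On simulated counts of 14539 genes for this comparison, 9.25%, 49.9% and 94.8% of genes changed 1.5-fold, 2-fold and 4-fold were called, and 8.09% of calls were unchanged genes.

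The members, lists and roles were chosen with earlier results of these data known, and the pairs of genes set in ratio after their values were seen. Values per library are given for called genes, the most abundant gene per kb of each role, up to 3 genes with the largest fold change in each direction at 5 CPM or more, and Timm23, Tomm20, Tomm40, Chchd2, Chchd4, Chchd10 and Cox17, and for Timm13 and Timm22, added after their values were seen. The promoter motifs were not part of the planned tests, and the NRF1 motif was shortened to its core after a longer form had been searched and its matches seen. The offset for the shortest transcript was chosen after seeing the data. Promoter coordinates belong to GRCm38.p6, not to mm9. A planned search of protein sequences for cysteine motifs was not analysed here. Figures were drawn with matplotlib 3.10.9.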

Additional observations from a re-analysis of the deposited data

How the results depend on the processing

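No member was called lower in any of the 18 alternatives. Against 300 genes higher, 21 lower and 8 members higher, the DESeq2 Wald test gave 937, 571 and 19, no filter on low counts 560, 126 and 15, and a test against a 1.5-fold change 63, 0 and 1. The length offset gave 38, 5 and 2, and the offset for the shortest transcript gave 138 genes and 5 members higher. With length and GC offsets 340 genes were lower and the higher share of calls was 47.3%, against 93.5% in the main fit. WT replicate 3 as the only WT library gave 884, 331 and 15. Leaving out each library gave 81 to 1857 genes higher, 1 to 1142 lower, and 2 to 23 members higher, with the highest of each without WT replicate 1, where the higher share of calls was 61.9%. The member median moved from 0.66 to 0.87 at a mean of at least 10 CPM, where 28 members were tested, and to 0.44 with length and GC offsets, and was 0.58 to 0.71 when a library was left out. DESeq2 size factors, limma-voom, leaving out the ribosomal rows and testing protein-coding genes only gave 8, 12, 8 and 8 members. Of all genes 1.95%, 2.54%, 2.08% and 1.69% were called higher in these fits. For limma-voom, 8 of the 12 were the 8 of the main fit.

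Signs changed in 5 genes near 0, and none of these values was called. Cox11 was at -0.18 with the length offset, -0.03 with the shortest transcript, -0.02 to 0.31 when a library was left out (-0.02 without WT replicate 1) and -0.17 with WT replicate 3 alone. Timm17a was at -0.30 with the length offset, 0 with the shortest transcript, -0.02 to 0.22 when a library was left out, -0.10 with WT replicate 3 alone and -0.18 with length and GC offsets. Tomm70a was at 0.03, 0.02 and 0.30 with the length, shortest transcript, and length and GC offsets, and Cox15 at 0.07 with the last. Tomm6os was at -0.01 with DESeq2 size factors and the Wald test, -0.02 with limma-voom and -0.10 to 0.15 when a library was left out, below 0 without LCS replicate 1 and 0 without WT replicate 3. The causes were not tested. No paired analysis was possible because the labels give no number shared between the groups. In the simulation, which lacked the differences in composition between the real groups, 1.5-fold changes were mostly not called with 3 libraries a group.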
